A study of Rattus norvegicus with 12 samples.

Results

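The insulin-like growth factor (IGF) system was described in primary rat atrial fibroblasts by 10 genes, taken as the rows of the deposited tables whose symbol was Igf1, Igf2, Igf1r, Igf2r or Igfbp2 to Igfbp7. All 10 were found among the 22850 features listed, and all 10 had enough counts to be tested. The cells came from the atria of Sprague-Dawley rats aged 1 to 3 days and were enriched for fibroblasts by differential adhesion, without sorting. The 3 treatments were angiotensin II alone (AngII, 1 μmol/L), AngII after 1 h with HNG (10 μmol/L), an analogue of the mitochondrial peptide humanin, and AngII after 1 h with MOTS-c (5 μmol/L), another mitochondrial peptide. All 12 libraries, 4 biological replicates per treatment, were made after 48 h with AngII in medium with 2% FBS, so every group carried AngII and no untreated group was analysed here.

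IGF-1 and IGF-2 are secreted growth factors that act through IGF1R, a receptor tyrosine kinase which signals through IRS proteins, PI3K, AKT and mTOR. IGF2R, the cation-independent mannose 6-phosphate receptor, takes IGF-2 up for degradation and carries lysosomal enzymes to the lysosome. The IGF binding proteins hold the ligands in the extracellular fluid and release them when they are cut by proteases, and IGFBP7 binds IGFs only weakly. In the heart, fibroblasts are a source of IGF-1, and IGFBP3 is known to bind humanin, which is why the system was examined in cells given a humanin analogue.

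The promoters of 3 genes are shown. Igf2r and Igfbp6 were the genes whose groups did not overlap in a comparison with AngII, though neither passed the test. Igfbp3 encodes the humanin binding partner. No result below depends on these sequences. Each run is the 250 bases before the annotated start in RefSeq (assembly GRCr8), read 5′ to 3′ on the strand of the gene. Capitals mark the E-box CACGTG and the forkhead motif TGTTTAC, on either strand. The Igf2r promoter lies on the plus strand at chr1:50526628-50526877, that of Igfbp6 on the plus strand at chr7:135154669-135154918, and that of Igfbp3 on the minus strand at chr14:86277945-86278194. The build on which the reads were counted is not given in the sources used here.
Igf2r: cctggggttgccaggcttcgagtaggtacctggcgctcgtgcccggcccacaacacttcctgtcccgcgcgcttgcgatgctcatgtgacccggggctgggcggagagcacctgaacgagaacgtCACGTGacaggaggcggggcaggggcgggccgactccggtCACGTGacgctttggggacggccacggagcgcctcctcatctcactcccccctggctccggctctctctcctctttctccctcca
Igfbp6: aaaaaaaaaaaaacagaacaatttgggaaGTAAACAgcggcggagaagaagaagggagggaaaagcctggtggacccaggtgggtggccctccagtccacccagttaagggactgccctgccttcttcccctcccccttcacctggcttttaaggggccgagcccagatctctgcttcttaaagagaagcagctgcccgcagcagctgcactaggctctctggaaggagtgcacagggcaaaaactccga
Igfbp3: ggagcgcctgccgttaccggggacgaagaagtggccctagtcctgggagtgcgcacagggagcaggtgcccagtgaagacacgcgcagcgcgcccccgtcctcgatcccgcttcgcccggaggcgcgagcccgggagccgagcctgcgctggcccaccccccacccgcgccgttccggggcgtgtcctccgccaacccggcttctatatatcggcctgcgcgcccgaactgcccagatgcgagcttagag

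The Igf2r promoter held 2 E-boxes, and the letters shared around both, read outward from the E-box, were the palindrome GTCACGTGAC, chosen after the sequence had been seen. At least 2 E-boxes were found in 0.43% of the 33469 promoters of the table, and GTCACGTGAC in 0.203%. E-boxes were found in 3 of the 11 promoters of the IGF genes (Igf2r, Igf1r and Igfbp2, with Igf2 listed under a pair of promoters), against 5.59% of all promoters. The Igfbp6 promoter was the only one of the 11 with TGTTTAC, found there on the opposite strand, against 3.21% of all promoters. Igfbp3 held neither motif in this window. The GC box GGGCGG was found in 5 of 11 (30.5% of all), the TATA box TATAAA in 1 of 11 (Igfbp4; 12.9% of all) and the AP-1 site TGACTCA in 0 of 11 (4.05% of all), each searched on both strands. Matches of different motifs did not overlap, apart from the E-box within the longer palindrome. The share of G and C ran from 46.8% (Igf1) to 79.6% (Igf1r) over the 11 promoters, with 68.0% for Igf2r, 71.6% for Igfbp3 and 54.8% for Igfbp6, beside a median of 51.2% over all promoters. These matches describe letters and were not tied to any binding measurement.

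The libraries held 27960586 to 38322354 counts on genes. Replicates of a treatment differed by 4.40 to 19.4 times their sampling noise (chi-square per gene), more than counting error alone gives, and each was counted as 1 sample. Replicates 2 and 3 of each treatment share a number in their library names, and AngII+MOTS-c replicate 1 carries the number 2 where replicate 1 of the other treatments carries 1. Fibroblast markers were abundant in every library, with Col1a1 at 22833 to 26770 CPM (counts scaled by TMM to a common library total), and a summed level of 61091 to 69142 CPM over 10 genes. Markers of other cell types were also counted, with a sum of 5519 to 7291 CPM over 8 cardiomyocyte genes. The 8 smooth muscle and pericyte genes summed to 5779 to 7573 CPM, mostly from Acta2 and Tagln, which activated fibroblasts express too, while the pericyte gene Rgs5 stood at 3.58 to 6.75 CPM. The 10 macrophage markers summed to 154.0 to 248.6 CPM with Cd163 at 0 to 0.55 CPM, and 8 endothelial markers summed to 73.2 to 101.1 CPM. In bulk RNA, fewer cells of a type and less RNA per cell cannot be told apart.

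Igfbp7 was the most abundant gene of the system by far, and the receptor Igf2r came next. Compared per gene length as deposited FPKM, Igfbp7 averaged 682 ± 41.9 (SD, n = 12) and Igf2r 123 ± 4.83. Igf1 followed at 48.8 ± 6.85, Igfbp6 at 38.2 ± 2.51, Igfbp3 at 30.2 ± 3.24 and Igfbp4 at 24.6 ± 1.76 FPKM. The lowest were Igf2 at 16.4 ± 1.79, Igf1r at 9.20 ± 0.708, Igfbp5 at 5.97 ± 0.88 and Igfbp2 at 5.60 ± 0.588 FPKM. Ranges over the 12 libraries did not overlap between Igfbp7, Igf2r and Igf1, nor between Igfbp4, Igf2, Igf1r and Igfbp5. Igf1 exceeded Igfbp6 in 11 of 12 libraries, whereas Igfbp6 over Igfbp3 and Igfbp3 over Igfbp4 held in 12 of 12 although their ranges overlapped. Igfbp5 and Igfbp2 could not be ordered, as Igfbp5 was the higher in only 7 of 12 libraries.

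**Figure D1:**
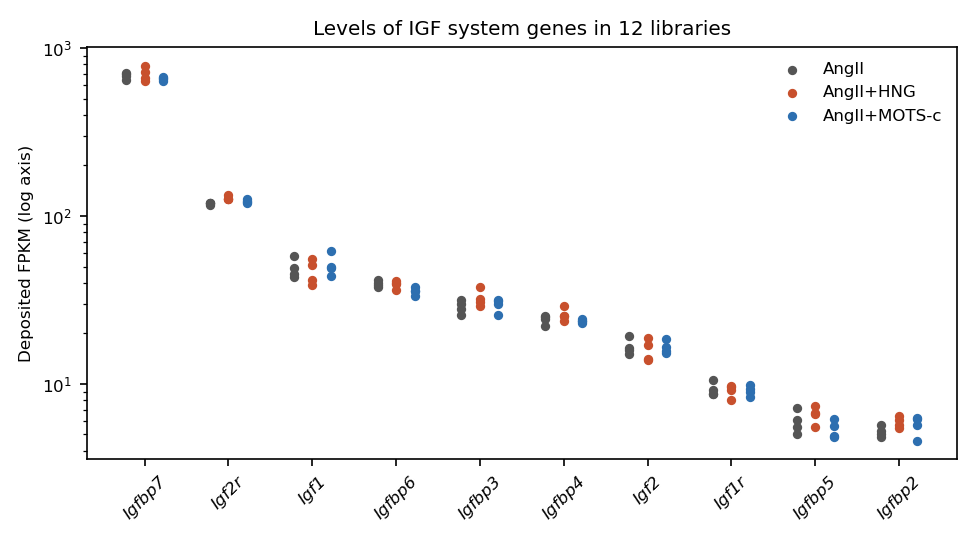
Deposited FPKM of the 10 IGF system genes (log axis) in 12 libraries, 4 per treatment, each point a library and each colour a treatment. Igfbp7 lies at 637 to 785 FPKM, above Igf2r at 116 to 134 FPKM, and the remaining genes lie between 4.59 and 61.7 FPKM.

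These levels set the balance within the system. Igfbp7 made up 84.7% to 87.6% of the summed FPKM of the 6 binding protein genes, and Igfbp2 to Igfbp6 together reached 97.9 to 120.7 FPKM. The FPKM of Igf1 exceeded that of Igf2 by 2.36 to 3.71 times, with a mean ratio of 2.98 ± 0.341 (SD, n = 12). The FPKM of Igf2r exceeded that of Igf1r by 11.3 to 15.6 times, with a mean ratio of 13.5 ± 1.20. The RNA of the scavenging receptor was thus more than 10 times that of the signalling receptor in every library. The mean ratio of Igf2r to Igf1r was 12.8 ± 1.19 with AngII, 14.1 ± 1.24 with AngII+HNG and 13.5 ± 1.17 with AngII+MOTS-c (SD, n = 4), and the ranges of the treatments overlapped. Igfbp1, Igfbpl1 and the insulin gene Ins1 had 0 counts in all libraries, and Igfals, which encodes the subunit that holds IGFs in the large serum complex, reached at most 0.309 CPM. The insulin receptor Insr stood at 4.69 to 6.62 FPKM, and Pappa, H19 and Meg3 were not analysed here.

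The main question was whether either peptide changed the IGF system of AngII-treated fibroblasts. By edgeR (quasi-likelihood, p adjusted over all genes by Benjamini-Hochberg), 0 of the 10 genes passed the threshold of 0.05 for HNG versus AngII, where 5.98% of 14524 genes did. For MOTS-c versus AngII 0 of 10 passed, against 0.0069% of all genes (1 of 14488), and for HNG versus MOTS-c 0 of 10, against 4.41%. DESeq2 and limma on log2(FPKM + 1) also called 0 of 10 in each comparison, and the shares of all genes they called are not reported here. At an unadjusted p below 0.05 edgeR counted 1 gene for HNG versus AngII (Igf2r; 20.3% of all genes), 1 for MOTS-c versus AngII (Igfbp6; 5.05%) and 2 for HNG versus MOTS-c (Igfbp5 and Igfbp6; 19.3%). The groups did not overlap for 1 gene with HNG versus AngII (Igf2r; 13.7% of all genes), 1 with MOTS-c versus AngII (Igfbp6; 3.41%) and 0 with HNG versus MOTS-c (12.6%). The median log2 fold change of the 10 genes was 0.046, -0.029 and 0.066 in the 3 comparisons, beside 0.0043, -0.00076 and 0.0023 over all genes tested. All comparisons share libraries with each other, so their values are given side by side and not as repeats.

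**Figure D2:**
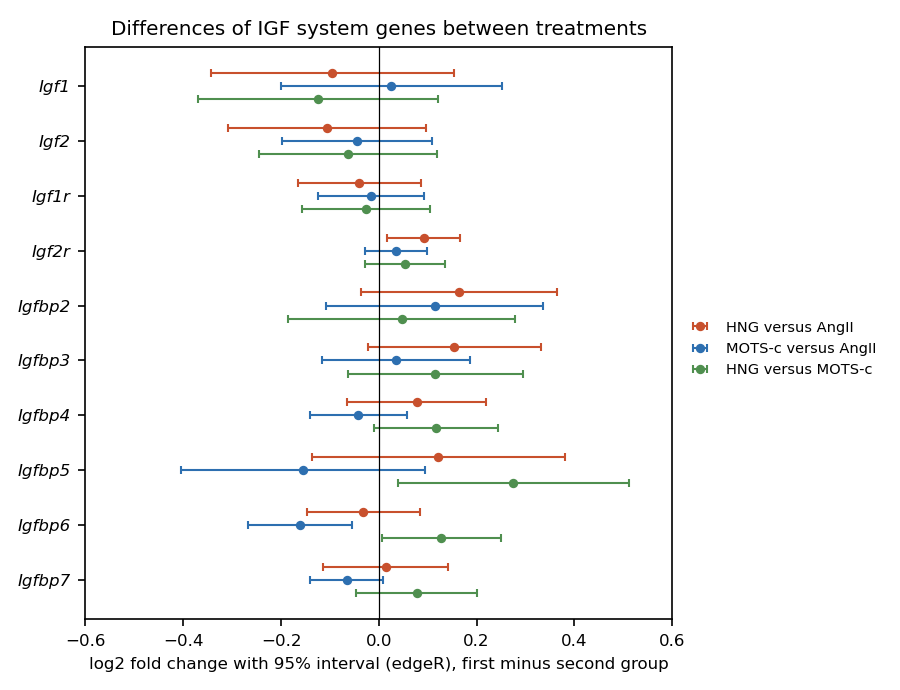
Log2 fold changes of the 10 genes with 95% intervals from edgeR (x axis, first minus second group) in the 3 comparisons, each on 8 libraries. Most intervals include 0, and those of Igf2r (HNG versus AngII), Igfbp6 (MOTS-c versus AngII and HNG versus MOTS-c) and Igfbp5 (HNG versus MOTS-c) do not, before adjustment for the number of genes.

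The intervals show which changes the data leave room for. Over the 30 estimates the differences ran from -10.6% (Igfbp6, MOTS-c versus AngII) to 21.0% (Igfbp5, HNG versus MOTS-c), and the 95% limits from -24.5% to 42.5%, both of Igfbp5. A doubling or a halving of the RNA lay outside the interval of each of the 10 genes in each comparison, whereas changes of 10% to 20% lay inside the interval of many of them.

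Among the ligands, Igf1 varied more between replicates than between treatments. Its CPM in replicates 1 to 4 was 262, 249, 242 and 335 with AngII, 270, 230.5, 211 and 304 with AngII+HNG, and 257, 277, 239 and 334 with AngII+MOTS-c. Replicate 4 was the highest and replicate 3 the lowest library of each treatment, and the treatments overlapped almost entirely. The log2 fold change was -0.095 for HNG versus AngII (95% interval -0.34 to 0.15, adjusted p = 0.712), 0.026 for MOTS-c versus AngII (-0.20 to 0.25, adjusted p = 0.985) and -0.12 for HNG versus MOTS-c (-0.37 to 0.12, adjusted p = 0.6), the last being -0.020 without AngII+MOTS-c replicate 4 and -0.22 without AngII+HNG replicate 4. Igf2, the growth factor of fetal tissues, stood at 61.4, 61.0, 63.0 and 76.6 CPM with AngII, 64.4, 53.1, 55.0 and 70.4 CPM with AngII+HNG, and 61.4, 59.4, 69.9 and 63.2 CPM with AngII+MOTS-c. Its groups overlapped in each comparison, and its adjusted p was 0.591, 0.97 and 0.731 for HNG versus AngII, MOTS-c versus AngII and HNG versus MOTS-c. The table's annotation places Ins2 next to Igf2, and Ins2 was counted at 4.69 to 6.92 CPM but only 0.137 to 0.204 FPKM. Igfbp2, at 6.28 to 8.67 CPM, stood at 4.59 to 6.47 FPKM, so the length set for Ins2 was far longer. Ins2 stood at 6.05, 6.60, 6.39 and 5.50 CPM with AngII and at 5.21, 4.69, 4.97 and 4.75 CPM with AngII+MOTS-c, without overlap, at a log2 fold change of -0.32 and an edgeR adjusted p of 0.924. Among all genes 1.73% stood lower with MOTS-c without overlap. With AngII+HNG Ins2 stood at 6.92, 6.27, 6.67 and 5.33 CPM, above AngII+MOTS-c without overlap, where 6.37% of all genes stood higher with HNG. Whether strand was used in counting is not given in the sources used here, so reads of Ins2 and of RNA that overlaps it cannot be told apart.

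The receptors differed in how tightly they were measured. Igf1r stood at 125, 117, 109.6 and 111 CPM with AngII, 122, 114.5, 101 and 110.5 CPM with AngII+HNG, and 112, 123, 116 and 105 CPM with AngII+MOTS-c. The treatments overlapped throughout, and the log2 fold change was -0.040 for HNG versus AngII (95% interval -0.17 to 0.085, adjusted p = 0.769) and -0.016 for MOTS-c versus AngII (-0.12 to 0.093, adjusted p = 0.98). Igf2r, with a coefficient of variation of 3.40% over all libraries, was the least variable of the 10 genes. It stood at 1108, 1071, 1111 and 1116 CPM with AngII, 1163, 1158, 1143 and 1216 CPM with AngII+HNG, and 1122, 1128, 1095 and 1164 CPM with AngII+MOTS-c. The 4 AngII+HNG libraries lay above the 4 AngII libraries, by 6.58% in the fit (log2 fold change 0.092, SE 0.035, 95% interval 0.017 to 0.17). The unadjusted p was 0.0202 and the adjusted p 0.155, so the difference did not pass the test over all genes, among which 6.87% stood higher with HNG without overlap. With MOTS-c the log2 fold change of Igf2r from AngII was 0.035 (-0.029 to 0.099, adjusted p = 0.939), and for HNG versus MOTS-c it was 0.054 (-0.028 to 0.14, adjusted p = 0.466). The former was 0.020 without AngII+MOTS-c replicate 4 and 0.022 without AngII replicate 2, and the latter 0.034 without AngII+MOTS-c replicate 3. Markers of macrophages, cells rich in lysosomes, summed to 181.6 to 248.6 CPM with AngII+HNG and 154.1 to 190.8 CPM with AngII, with 3 of 9 tested past the threshold upward (3.4% of all genes) and 3 of 9 estimates below 0, and their part in the Igf2r values was not tested.

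Igfbp3, the humanin binding partner, did not pass the test in any of the 3 comparisons, and its groups overlapped. An alternative edgeR fit with replicate number as a block called it for HNG versus AngII (adjusted p = 0.0474). The replicate numbers were not taken to pair the libraries, for reasons given in the closing section. The CPM of Igfbp3 was 70.6, 65.3, 75.5 and 81.1 with AngII, 76.8, 72.6, 80.2 and 94.8 with AngII+HNG, and 78.5, 65.1, 75.8 and 80.2 with AngII+MOTS-c. AngII+HNG replicate 4 was the highest of the 12 libraries, and the other AngII+HNG libraries lay within the range of AngII. The log2 fold change was 0.15 for HNG versus AngII (SE 0.082, 95% interval -0.022 to 0.33, adjusted p = 0.321), an 11.3% difference with limits of -1.53% and 25.8%. The estimate was 0.071 without AngII+HNG replicate 4 (adjusted p = 0.637) and 0.10 without AngII replicate 2 (adjusted p = 0.6). It was 0.036 for MOTS-c versus AngII (-0.12 to 0.19, adjusted p = 0.971) and 0.12 for HNG versus MOTS-c (-0.063 to 0.29, adjusted p = 0.475), the peptides having been given at different doses. The latter was 0.034 without AngII+HNG replicate 4 and 0.045 without AngII+MOTS-c replicate 2.

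Igfbp6, which binds IGF-2 in preference to IGF-1, was the gene of the system with the smallest p in any comparison. It stood at 35.7, 38.1, 34.5 and 36.9 CPM with AngII, 32.9, 35.6, 37.1 and 36.1 CPM with AngII+HNG, and 30.3, 34.1, 32.4 and 32.8 CPM with AngII+MOTS-c. All 4 AngII+MOTS-c libraries lay below all 4 AngII libraries, with the closest pair at 34.1 and 34.5 CPM. The fitted difference was -10.6% (log2 fold change -0.16, SE 0.049, 95% interval -0.27 to -0.056), with an unadjusted p of 0.00573 and an adjusted p of 0.924. Ranked by p it was gene 83 of 14488, among which 1.73% stood lower with MOTS-c without overlap, and 732 of these genes had an unadjusted p below 0.05. Against MOTS-c, HNG stood at a log2 fold change of 0.13 (0.0062 to 0.25, adjusted p = 0.236), and against AngII at -0.031 (-0.15 to 0.084, adjusted p = 0.811).

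Igfbp5, a binding protein that is also deposited in the matrix, and Igfbp2 were the scarcest members, with 205 to 467 counts per library. Igfbp5 stood at 10.4, 9.48, 8.58 and 12.5 CPM with AngII, 11.2, 11.4, 9.33 and 12.4 CPM with AngII+HNG, and 8.31, 9.49, 8.27 and 10.6 CPM with AngII+MOTS-c. HNG and MOTS-c groups overlapped, and the log2 fold change between them was 0.27 (SE 0.109, 95% interval 0.039 to 0.51), with an unadjusted p of 0.026 and an adjusted p of 0.189. Igfbp2 stood at 7.81, 6.62, 6.87 and 7.21 CPM with AngII, 7.35, 7.69, 8.67 and 8.14 CPM with AngII+HNG, and 8.34, 7.76, 8.48 and 6.28 CPM with AngII+MOTS-c. AngII+MOTS-c replicate 4 was its lowest library, and the adjusted p was 0.356 for HNG versus AngII, 0.939 for MOTS-c versus AngII and 0.852 for HNG versus MOTS-c.

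Igfbp4, a carrier that is cut by pregnancy-associated plasma protein A, and Igfbp7 showed close groups. Igfbp4 ranged over 50.5 to 58.5 CPM with AngII, 53.5 to 65.4 CPM with AngII+HNG and 52.4 to 55.1 CPM with AngII+MOTS-c, and its adjusted p was 0.571, 0.945 and 0.297 in the same order of comparisons. Igfbp7 ranged over 752 to 831 CPM, 732 to 897 CPM and 738 to 784 CPM, with an adjusted p of 0.932, 0.924 and 0.49. The AngII+HNG libraries of Igfbp7 were the most spread, with an SD of 72.9 CPM against 33.6 CPM with AngII and 19.4 CPM with AngII+MOTS-c.

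**Figure D3:**
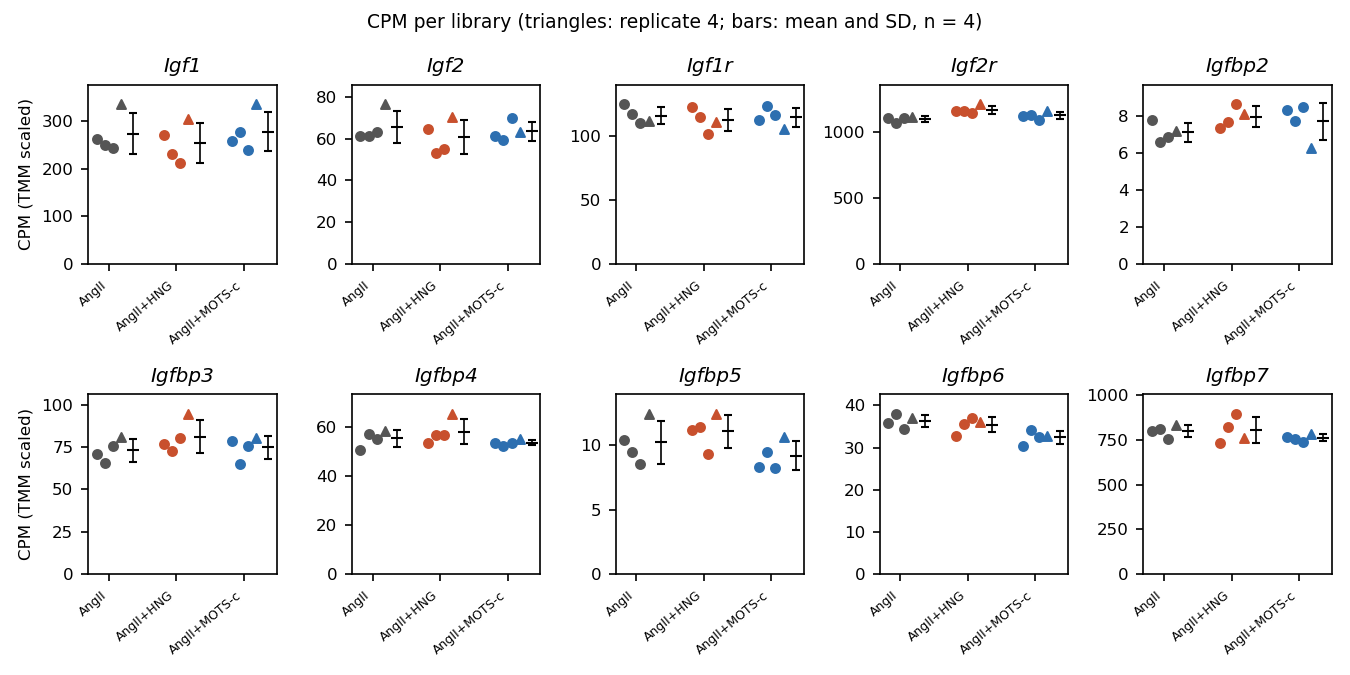
TMM-scaled CPM of each of the 10 genes (y axis, from 0) in every library, grouped by treatment, with replicate 4 as a triangle and the mean and SD of 4 libraries as a bar. The groups overlap except for Igf2r between AngII and AngII+HNG and for Igfbp6 between AngII and AngII+MOTS-c.

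A pattern by replicate number ran through several genes. Replicate 4 was the highest library of all 3 treatments for Igf1, Igf2r, Igfbp3, Igfbp4 and Igfbp5, 5 of the 10 genes, against 5.15% of 14686 genes. This was noticed after the values were seen and is given as a description. Replicate 2 was the lowest of all 3 treatments for Igf2 and Igfbp3 (1.85% of genes), and replicate 3 for Igf1 and Igfbp5 (3.08%). Replicate 4 also had the highest summed level of fibroblast, cardiomyocyte and macrophage markers in each treatment, at 67383, 69142 and 67140 CPM for fibroblasts and 190.8, 248.6 and 184.3 CPM for macrophages with AngII, AngII+HNG and AngII+MOTS-c. It had the lowest sum of smooth muscle and pericyte markers with AngII and AngII+HNG, at 7293.5 and 5779 CPM. For epicardial and mesothelial markers it was lowest with AngII and AngII+MOTS-c, at 52.4 and 52.2 CPM. For endothelial markers it was highest with AngII+HNG and lowest with AngII+MOTS-c, at 101.1 and 76.0 CPM. The part of these markers in the replicate pattern was not tested. Without replicate 4 of both groups, an omission chosen after seeing the data, 0 of 10 genes passed in each comparison. The shares of all genes called in these smaller fits are not reported here, so the 0 of 10 cannot be set against them.

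**Figure D4:**
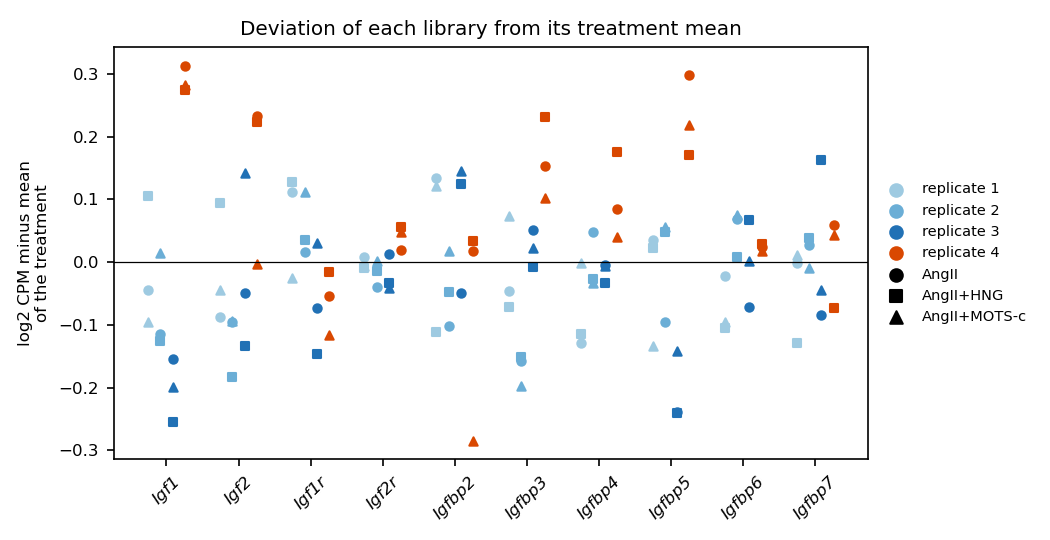
Log2 CPM of each library minus the mean of its treatment (y axis) for the 10 genes, coloured by replicate number and shaped by treatment. Replicate 4 lies above 0 in all treatments for Igf1, Igf2r, Igfbp3, Igfbp4, Igfbp5 and Igfbp6, below 0 in all treatments for Igf1r, and lowest for Igfbp2 with AngII+MOTS-c.

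Across the 12 libraries the log2 CPM of the members moved together in some pairs. The highest Pearson r was 0.70 between Igf2r and Igfbp3, and 0.67 was found between Igfbp3 and Igfbp4 as well as 0.66 between Igf1 and Igf2. The lowest was -0.58, between Igf1r and Igfbp3. Among 13085 genes of at least 1 CPM on average, those most like Igf1 were LOC24906 (r = 0.95), Pdgfrb, the PDGF receptor of fibroblasts and pericytes (r = 0.94), and the phosphodiesterase Pde3a (r = 0.93). Those most like Igfbp3 included Smarca2, a chromatin remodeller (r = 0.93), and the prostaglandin receptor Ptger4 (r = 0.91). Without replicate 4 of each treatment, the r of these 5 genes lay between 0.76 and 0.86 over 9 libraries. The points share their treatments, replicate numbers and library scaling, and the values are a description.

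Around the IGF genes, the proteases Htra3 and Ctsd rose with HNG while most of their list did not pass. Of 8 tested of 10 genes listed as proteases of binding proteins and their inhibitors, 2 rose, 1 fell and 5 did not pass for HNG versus AngII (3.4% and 2.58% of all genes rose and fell), with a list median of 0.11. Htra3, a secreted serine protease that cleaves binding proteins, stood at 21.6, 23.7, 21.8 and 25.5 CPM with AngII and 34.8, 41.5, 40.1 and 51.0 CPM with AngII+HNG. Every AngII+HNG library exceeded every AngII library, at a log2 fold change of 0.86 (SE 0.0996, 95% interval 0.64 to 1.07, edgeR adjusted p = 0.000474). With MOTS-c Htra3 stood at 22.4, 22.3, 22.0 and 28.9 CPM, below the HNG libraries (HNG versus MOTS-c 0.81, adjusted p = 0.00191). Ctsd, the lysosomal protease cathepsin D, which is sorted by mannose 6-phosphate receptors, stood at 509 to 592 CPM with AngII, 656 to 748 CPM with AngII+HNG and 495 to 584 CPM with AngII+MOTS-c. It rose with HNG by 0.37 on the log2 scale (SE 0.056, adjusted p = 0.00205) and also exceeded MOTS-c by 0.37 (adjusted p = 0.00312). Cathepsin D is also abundant in macrophages, whose markers Cd68 and Mrc1 rose with HNG by 0.69 (adjusted p = 0.00343) and 0.55 (adjusted p = 0.00568). Ptprc rose as well, by 0.37 (adjusted p = 0.0257), a call that was lost in 4 omissions of a library (adjusted p between 0.0681 and 0.0947). Of the other macrophage markers tested, Cd14 stood at 0.29 (adjusted p = 0.168), Csf1r at 0.17 (adjusted p = 0.4) and C1qa at 0.10 (adjusted p = 0.843), while Adgre1 stood at -0.36 (adjusted p = 0.185), C1qc at -0.43 (adjusted p = 0.255) and C1qb at -0.046 (adjusted p = 0.916). The part of macrophage markers in the rise of Ctsd was not tested. The closely related protease Htra1 was far more abundant than Htra3, at 220 to 269 against 7.67 to 18.7 FPKM, and did not pass with HNG (log2 fold change 0.11, adjusted p = 0.131). Adamts1 fell by 0.17 (adjusted p = 0.0304), a call that was lost without AngII replicate 1, 2 or 3 or AngII+HNG replicate 4 (adjusted p = 0.107, 0.0884, 0.0608 and 0.0725).

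Of the cell surface and matrix partners of binding proteins, 1 of 7 tested rose and 2 fell with HNG versus AngII (3.4% and 2.58% of all genes), with a list median of 0.028. Itgb1, the β1 integrin subunit, stood at 3974, 3759, 3877 and 3768 CPM with AngII and 3489, 3434, 3244 and 3222 CPM with AngII+HNG. The groups did not overlap, and Itgb1 fell by 0.20 on the log2 scale (SE 0.037, adjusted p = 0.00853). Lrp1, an endocytic receptor for IGFBP3, rose by 0.17 (adjusted p = 0.012), but not at the threshold without AngII replicate 2 or 3 (adjusted p = 0.05 and 0.0508). Itga5, the fibronectin receptor subunit which IGFBP1 binds, fell by 0.15 (adjusted p = 0.0273), and its call was lost without any of the 4 AngII libraries or without AngII+HNG replicate 2 or 4 (adjusted p between 0.06 and 0.082). For HNG versus MOTS-c Itgb1 was lower by a log2 fold change of -0.16 (adjusted p = 0.0421), a call that was lost in each omission of a library except AngII+HNG replicate 1 (adjusted p between 0.0518 and 0.106).

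Among 36 tested of 37 genes of IGF1R and PI3K-AKT-mTOR signalling, 1 rose and 2 fell with HNG versus AngII, and the list median was 0.0069. The share called was 3 of 36, near the 5.98% of all genes. Pik3ip1, an inhibitor of PI3K, stood at 25.9, 27.6, 26.2 and 32.6 CPM with AngII and 33.0, 35.7, 43.5 and 41.4 CPM with AngII+HNG, where the groups nearly touched. It rose by 0.46 (SE 0.094, adjusted p = 0.0124), and without AngII replicate 1 its adjusted p was 0.0602. Pik3r3, a regulatory subunit of PI3K, stood at 53.6, 52.2, 53.4 and 60.7 CPM with AngII and 48.7, 45.6, 41.3 and 43.5 CPM with AngII+HNG, and fell by 0.29 (SE 0.062, adjusted p = 0.0146). Without replicate 4 of both groups its adjusted p was 0.0796. Grb14, an adaptor that inhibits insulin receptor signalling, fell by 0.22 (adjusted p = 0.043), and its call was lost without any AngII library or without AngII+HNG replicate 1, 3 or 4 (adjusted p between 0.0553 and 0.115). The core kinases did not pass, with adjusted p of 0.454 for Akt1, 0.689 for Akt2 and 0.92 for Mtor, and 0.391 and 0.858 for the IGF1R substrates Irs1 and Irs2. For HNG versus MOTS-c Pik3ip1 (0.43, adjusted p = 0.0261) and Pik3r3 (-0.23, adjusted p = 0.0328) passed. The call of Pik3ip1 was lost without AngII+HNG replicate 3 or 4 or AngII+MOTS-c replicate 1, 2 or 3 (adjusted p between 0.0536 and 0.0831), and that of Pik3r3 without AngII+HNG replicate 2 or 4 or AngII+MOTS-c replicate 1, 2 or 3 (adjusted p between 0.0605 and 0.0987).

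FOXO factors are held out of the nucleus by AKT, and 15 of their known target genes were tested, of which 3 rose and 1 fell with HNG versus AngII (3.4% and 2.58% of all genes), with a list median of 0.10. Selenop, a secreted selenium carrier, stood at 113, 111, 106 and 118 CPM with AngII, 144, 146, 124 and 169 CPM with AngII+HNG and 107, 96.9, 112 and 110.5 CPM with AngII+MOTS-c. It rose by 0.39 (SE 0.073, adjusted p = 0.00834) and exceeded MOTS-c by 0.45 (adjusted p = 0.00613). Txnip, an inhibitor of thioredoxin, rose from 142 to 147 CPM with AngII to 162 to 186 CPM with AngII+HNG (log2 fold change 0.25, adjusted p = 0.00922). Pik3ip1, described above, was the other target that rose, and Cited2, a transcriptional coregulator, fell by 0.34 (adjusted p = 0.00746). Over the list 12 of 15 estimates were above 0 and 3 below.

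**Figure D5:**
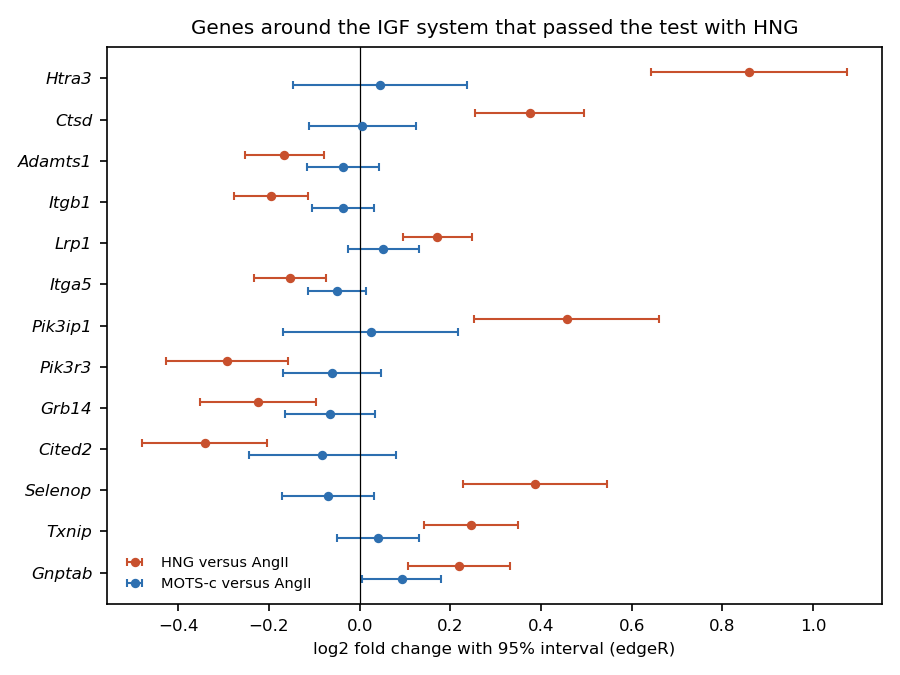
Log2 fold changes with 95% intervals (edgeR, x axis) of the 13 genes from the protease, partner, signalling, FOXO target and sorting lists that passed for HNG versus AngII, with the values of the same genes for MOTS-c versus AngII. Htra3 has the largest estimate with HNG, 0.86, and stands at 0.045 with MOTS-c.

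The sorting genes that work with Igf2r were 4, of which 1 rose with HNG versus AngII (3.4% of all genes), with a list median of 0.16. Gnptab, the enzyme subunit that makes the mannose 6-phosphate tag, stood at 44.9, 43.3, 43.0 and 47.0 CPM with AngII and 52.3, 48.3, 51.0 and 55.0 CPM with AngII+HNG, without overlap (log2 fold change 0.22, adjusted p = 0.0265). The call was lost without AngII replicate 1, 2 or 3 or AngII+HNG replicate 1 or 4 (adjusted p between 0.0577 and 0.092). M6pr, the smaller mannose 6-phosphate receptor, had a log2 fold change of 0.067 (adjusted p = 0.484). For HNG versus MOTS-c 0 of 4 passed in edgeR (4.41% of all genes), 3 had an unadjusted p below 0.05 (19.3% of all genes), and Nagpa, the enzyme that uncovers the tag, passed in DESeq2 and in limma.

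The 5 tested of 10 other IGF and insulin family genes gave 0 calls with HNG versus AngII in edgeR, DESeq2 and limma, and 1 had an unadjusted p below 0.05 (5.98% and 20.3% of all genes by edgeR). The 10 tested of 12 imprinted growth genes, a group to which Igf2 and Igf2r are related by their imprinting, also gave 0 calls in these tools and 1 unadjusted p below 0.05. For MOTS-c versus AngII edgeR, DESeq2 and limma called 0 genes in the lists of other IGF genes, proteases, partners, signalling, FOXO targets, sorting and imprinted genes. At an unadjusted p below 0.05 edgeR counted 1 of 5 other IGF genes, 0 of 8 proteases, 0 of 7 partners, 4 of 36 signalling genes, 0 of 15 FOXO targets, 1 of 4 sorting genes and 0 of 10 imprinted genes, where 5.05% of all genes did.

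Genes of the cell type marker lists moved with HNG versus AngII as well, and their part in the changes of the genes above was not tested. Of the smooth muscle and pericyte markers 5 of 8 fell (2.58% of all genes), among them Cnn1 (-0.41, adjusted p = 0.000126), Notch3 (-0.38, adjusted p = 0.000262), Acta2 (-0.29, adjusted p = 0.000727) and Myh11 (-0.34, adjusted p = 0.00152). Activated fibroblasts express Acta2 and Tagln too, so the fall cannot be assigned to smooth muscle cells or pericytes. The paper treats α-SMA, which Acta2 encodes, as a fibroblast activation marker and reports it as suppressed by HNG or MOTS-c pretreatment. Macrophage markers rose in 3 of 9, endothelial markers in 3 of 8, with Tek at 0.40 (adjusted p = 0.00347), and fibroblast markers in 2 of 10, with Tcf21 at 0.28 (adjusted p = 0.00746), where 3.4% of all genes rose. Estimates below 0 were found for 3 of the 9 macrophage markers and for 2 of the 8 endothelial markers, Erg (-0.30, adjusted p = 0.191) and Emcn (-0.19, adjusted p = 0.699). Tie1, an endothelial receptor kinase, rose by 0.42 (adjusted p = 0.0103), a call that was lost without replicate 4 of both groups (adjusted p = 0.0549). The call of Ptprc was lost without AngII replicate 1, 2 or 3 or AngII+HNG replicate 4 (adjusted p between 0.0681 and 0.0947). That of Kdr was lost without AngII replicate 1 or 2 or AngII+HNG replicate 2 or 4 (adjusted p between 0.0565 and 0.0796), and that of Thy1 without AngII replicate 1, 3 or 4 or AngII+HNG replicate 2 (adjusted p between 0.0609 and 0.0875). Without replicate 4 of both groups the edgeR adjusted p was 0.113 for Kdr and 0.0673 for Thy1. Kdr was also not called by limma on log2(FPKM + 0.1) or log2(FPKM + 1) (adjusted p = 0.0558 and 0.0519). Of 8 cardiomyocyte markers 1 passed, Tnni3 (0.43, adjusted p = 0.0131), which was not called without AngII replicate 1, 2 or 3 (adjusted p between 0.0519 and 0.0589). For HNG versus MOTS-c, where 4.41% of all genes passed, Notch3 (-0.37, adjusted p = 0.00156), Acta2 (-0.26, adjusted p = 0.00355) and Cnn1 (-0.22, adjusted p = 0.0107) were lower with HNG. The fibroblast markers Thy1 (0.35, adjusted p = 0.0019) and Tcf21 (0.35, adjusted p = 0.00597), the macrophage markers Cd68 (0.52, adjusted p = 0.00907) and Mrc1 (0.46, adjusted p = 0.0209), the endothelial markers Tie1 (0.47, adjusted p = 0.00679) and Tek (0.35, adjusted p = 0.00907) and Tnni3 (0.54, adjusted p = 0.00597) were higher. The call of Mrc1 was lost without AngII+MOTS-c replicate 1 or 2 (adjusted p = 0.0565 and 0.0732), and those of Cnn1 and Tek without replicate 4 of both groups (adjusted p = 0.056 and 0.0619). For HNG versus AngII, Schwann cell markers gave 0 of 4 and epicardial and mesothelial markers 0 of 5 in edgeR, DESeq2 and limma, and 0 had an unadjusted p below 0.05. For MOTS-c versus AngII edgeR and limma called 0 genes in the marker lists, and DESeq2 called 1, Cnn1, as lower. There 4 of 8 smooth muscle and pericyte markers had an unadjusted edgeR p below 0.05 (5.05% of all genes), with 7 of 8 estimates below 0. The counts were 1 of 10 for fibroblast, 0 of 9 for macrophage, 0 of 8 for endothelial, 1 of 8 for cardiomyocyte, 1 of 4 for Schwann cell and 1 of 5 for epicardial markers.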

How the data were processed

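The mRNA of primary rat atrial fibroblasts was sequenced in 4 libraries for each of 3 treatments, grouped by sample title. The authors used a dual-mode mRNA kit and paired-end DNBSEQ sequencing, and deposited read counts per gene without normalization and FPKM values, which divide counts by gene length and library total. The scaling of a gene differed between libraries. In replicate 4 of AngII and AngII+MOTS-c, Igf1 stood at 335 and 334 CPM but at 57.6 and 61.7 FPKM. In the same libraries Igfbp3 stood at 81.1 and 80.2 CPM and at 31.7 and 31.6 FPKM. Ratios of FPKM between genes carry this difference. The submitters' processing notes name HISAT2, Picard 1.41 and SAMtools 0.1.18, with no role; the counting tool, strand and build are not given in the sources used here.

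Counts were filtered with filterByExpr, scaled by TMM and tested per comparison on its 8 libraries with the quasi-likelihood functions of edgeR 4.0.16 (R 4.3.3), with Benjamini-Hochberg adjustment over all genes tested and a threshold of 0.05. Standard errors were derived from the F statistic, and log2 CPM used a prior count of 2. The computation was tested on simulated counts. Depth was 27960586 to 38322354 counts per library. Alternatives were DESeq2 1.42.0, RLE size factors, no filter, at least 10 counts in every library, all 12 libraries in 1 fit, a replicate block, replicates 2 and 3 summed, each library left out, replicate 4 left out (added later), and limma 3.58.1 on log2(FPKM + 1) or log2(FPKM + 0.1), with features of a mean of at least 0.5 FPKM or all.

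The 10 genes, the lists and the tests were chosen with earlier results of these data known. The text names all 10 genes; of each other list the up to 4 genes with the smallest adjusted p below 0.05 per comparison; levels of IGF family and protease genes; for Igf1 and Igfbp3 the 3 genes with the highest r, of which 1 is not reported here; and cell type markers. Other genes given with values (M6pr, Nagpa, Akt1, Akt2, Mtor, Irs1, Irs2) were named after their values were seen. Motifs were searched in 250 bases of RefSeq promoters (GRCr8).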

Additional observations from a re-analysis of the deposited data

Results flagged for a closer look

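In groups of 4 libraries, a library was marked where its gap to the nearest other library exceeded Dixon's 95% limit for its share of the group's range. Of 108 groups over 36 genes (the 10 IGF genes and the up to 4 called genes of each list per comparison), 7 were marked, and chance marks about 1 in 20. Among the 10 IGF system genes, Igf2 was marked in AngII replicate 4, at 76.6 CPM against 61.0 to 63.0 CPM in the other AngII libraries. AngII replicate 4 was also the highest for Ctsd, at 592 CPM against 509 to 523 CPM, for Pik3r3, at 60.7 CPM against 52.2 to 53.6 CPM, and for Ptprc, at 17.7 CPM against 14.8 to 15.2 CPM. AngII+MOTS-c replicate 4 was the highest for Htra3, at 28.9 CPM against 22.0 to 22.4 CPM, and for Itga5, at 179 CPM against 169 to 170.1 CPM. AngII+MOTS-c replicate 2 was the lowest for Mrc1, at 28.1 CPM against 34.0 to 34.6 CPM.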

How the results depend on the processing

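The count of 0 of 10 IGF system genes past the threshold held in 18 of 19 alternatives for HNG versus AngII and in 19 of 19 for both other comparisons. The exception was the fit with the replicate block for HNG versus AngII, which called 1 gene, Igfbp3 (adjusted p = 0.0474), and called 1111 genes in all against 869 without the block; with it 2 genes in all were called for MOTS-c versus AngII and 1054 for HNG versus MOTS-c. The numbers were not taken to pair the libraries, because the correlations of deviations of same-numbered libraries, from -0.075 to 0.212 over the comparisons, were not all above 0.1 in any comparison. Whether such libraries share a preparation is not given in the sources used here; the highest values were those of replicate 4, at 0.136, 0.119 and 0.212, and 2, 4 and 5 of 8 libraries correlated best with their own number in the 3 comparisons. With each library left out in turn, the count was 0 to 0 in each comparison. In the surrounding lists DESeq2 called 5 signalling genes and 4 FOXO targets for HNG versus MOTS-c, against 2 and 2 in edgeR. The share of all genes that DESeq2 called is not reported here, so its list counts cannot be set against that share. With limma on log2(FPKM + 1) without a filter, the HNG versus AngII calls of Itgb1, Acta2, Cited2, Pik3r3 and Pik3ip1 were lost (adjusted p = 0.1, 0.0829, 0.0531, 0.0882 and 0.0787), as were those of Adamts1, Gnptab, Grb14, Itga5, Kdr, Ptprc, Tagln and Tnni3 and, for HNG versus MOTS-c, of Acta2, Cd68, Itgb1, Mrc1, Pik3ip1, Pik3r3 and Tek (adjusted p between 0.0528 and 0.201).

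Estimates near 0 changed sign in some alternatives, and none of them was called. With replicates 2 and 3 summed, Igfbp7 for HNG versus AngII was -0.033 and Igf1r for HNG versus MOTS-c 0.012. Igf1r for HNG versus MOTS-c was 0.0035 with limma on log2(FPKM + 0.1), 0.0034 on log2(FPKM + 1) and 0.0034 on log2(FPKM + 1) without a filter. With libraries left out, the log2 fold change for HNG versus AngII ranged from -0.19 to 0.019 for Igf1, -0.083 to 0.0046 for Igf1r, -0.057 to 0.0018 for Igfbp6 and -0.045 to 0.059 for Igfbp7. For MOTS-c versus AngII it ranged from -0.076 to 0.14 for Igf1, -0.095 to 0.041 for Igf2, -0.055 to 0.022 for Igf1r and -0.015 to 0.099 for Igfbp3. For HNG versus MOTS-c it ranged from -0.067 to 0.018 for Igf1r and -0.048 to 0.088 for Igfbp2. Fewer libraries were tested in these fits; otherwise the cause was not tested. Igfbp2 and Igfbp5, with 205 to 467 counts per library, were the least deeply counted, and intervals cover counting and replicate error of these libraries alone.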
